A study of Rattus norvegicus with 9 samples.

Results

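Abundant nuclear and small noncoding RNAs were examined in kidney. The set was chosen by Ensembl identifier and named 8 RNAs, namely Malat1, Neat1, Rn7sk, Rmrp, Rpph1, Gm23935, Gm26917 and Gm42418. The deposited tables listed 5 of them among 17862 features. These were Malat1 (ENSMUSG00000092341), Neat1 (ENSMUSG00000092274), Rn7sk (ENSMUSG00000065037), Gm23935 (ENSMUSG00000076258) and Gm26917 (ENSMUSG00000097971). Rmrp, the RNA of RNase MRP, Rpph1, the RNA of RNase P, and Gm42418 were not listed and were not analysed here. No listed value was 0, and whether RNAs without reads in some library had been left out was not tested. The RNAs were picked as abundant ones, so their levels are given as a description. All 5 passed the filter for testing, a mean of at least 1 FPKM, with 12187 features in all. FPKM is a read or fragment number scaled to feature length and to a library total.

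Renal tissue was sequenced from 3 groups of 3 samples at 6 weeks of age: hypertensive animals that received the herbal Qingda granule (QDG), hypertensive animals that did not (Model), and normal animals (WT). Total RNA was freed of ribosomal RNA with a depletion kit before library construction, so RNAs without a poly(A) tail could be captured. The labels name the rat, whereas 17553 features carry mouse Ensembl identifiers, and the symbols used here are the mouse ones. Which species was sequenced was not tested. Strain, sex, granule dose and the cause of hypertension were not stated, nor was it stated whether replicates were separate animals, so p-values measure only spread between samples that may be technical. The kidney label was not tested against marker genes, because neither the files nor the reference table at hand pairs these identifiers with symbols. Reads recovered from the steps of the values numbered 26.8 M to 29.4 M per library over the listed features.

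Malat1 and Neat1 are long RNAs that stay in the nucleus. They are transcribed from neighbouring genes by RNA polymerase II, and Malat1 collects in nuclear speckles while Neat1 is the scaffold around which paraspeckles form. Rn7sk, made by RNA polymerase III, is the 7SK RNA that holds the transcription elongation factor P-TEFb in an inactive complex. Gm26917 is a predicted mouse gene model known from sequencing data for overlap with sequence of the ribosomal RNA repeat, so reads left from ribosomal RNA can be counted to it. Gm23935 is a predicted gene model as well, and no role is given for it here. Whether reads left from ribosomal RNA are counted to Gm23935 was not tested. The lengths recovered from the FPKM steps were 6983 bases for Malat1, 20771 for Neat1, 331 for Rn7sk, 57 for Gm23935 and 3329 for Gm26917.

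The 5 RNAs spanned a wide range of levels, and not all of them were abundant. Gm23935 stood highest, at 1847 to 7721 FPKM in the 9 libraries, where it was between the 7th and the 13th most abundant feature per length. By reads it was less prominent, with 2769 to 11809 reads and a rank of 336 to 1736, since its FPKM rests on a length of 57 bases. Malat1 lay at 44.2 to 126 FPKM, above 92.6% to 97.9% of the features, and took 8279 to 27579 reads. Neat1 lay at 11.9 to 34.3 FPKM with 6932 to 22368 reads, and Gm26917 at 15.7 to 49.5 FPKM with 1376 to 4941 reads. Rn7sk was near the middle of the table, at 1.92 to 5.99 FPKM, and exceeded only 42.8% to 67.0% of the features. It rested on 20 to 52 reads per library, for which counting error alone is 13.9% to 22.4%. Together the 5 RNAs held 0.0948% (QDG 1) to 0.204% (WT 3) of the listed reads.

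**Figure D1:**
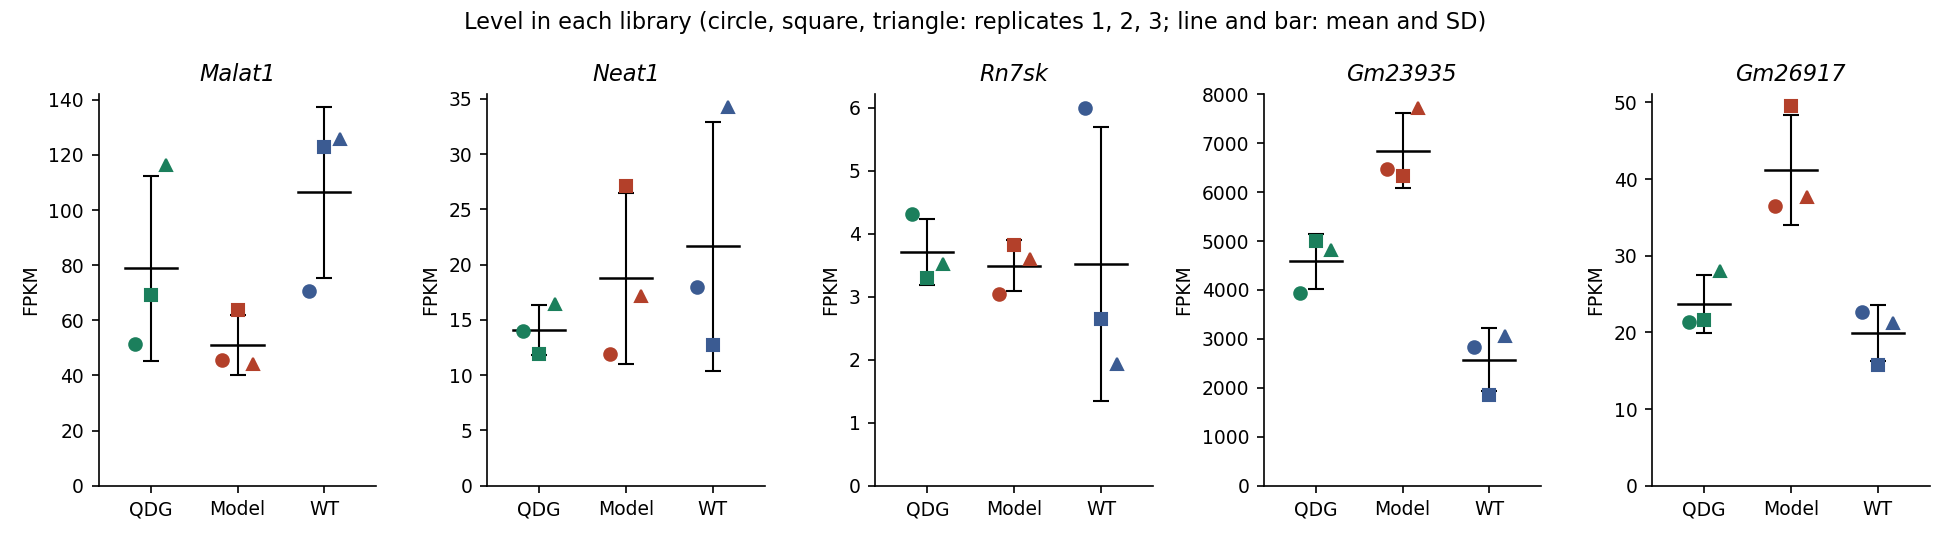
FPKM of the 5 listed RNAs in each library, in QDG, Model and WT, with the mean as a line and the SD as a bar (n = 3 each). Gm23935 and Gm26917 were higher in every Model library than in every WT library, as were 17.3% of the tested features. Malat1 was lower in every Model library than in every WT library, as were 10.9% of the tested features. Neat1 and Rn7sk overlapped between the groups.

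Model was compared with WT to find which of these RNAs differ in hypertensive kidney. Of the 5 RNAs, 2 rose and 0 fell (limma, adjusted p under 0.05), Gm23935 by 2.65-fold and Gm26917 by 2.07-fold in mean FPKM. Among all features tested, 6.01% were called higher and 1.9% lower, 7.9% in either direction. The RNAs were chosen with earlier results of these data known, so their count is a description and not a test of the set. Strain and batch are not known for these groups, so hypertension and other differences between them cannot be told apart. In bulk tissue, more cells that carry an RNA and more RNA per cell cannot be told apart either.

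Gm23935 was at 6470.3, 6329 and 7721 FPKM in Model and at 2828, 1847 and 3060.4 FPKM in WT. The lowest Model library was at 2.07 times the highest WT library, and 17.3% of the tested features were higher in Model without overlap. The means were 6840.1 ± 766 FPKM in Model and 2578 ± 644 FPKM in WT (SD, n = 3 each), and the log2 change on the log2(FPKM + 1) scale was 1.43 ± 0.22 (SE; limma adjusted p = 0.0112). This was the 25th highest log2 change of the 12187 features. The call held under all 21 alternative settings and fits, with log2 changes of 1.21 to 1.58 and adjusted p-values of 0.00501 to 0.0464. The 21 draw on the same libraries, so they are not independent checks. Scaling by listed reads, which is among them, was added after seeing the data.

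Of the 38 other tested features under 100 bases, 2 were called higher and 7 lower in Model, with a median log2 change of −0.19, against 0.02 over all features. Of the 1148 features from 100 to under 1000 bases, 135 were called higher and 20 lower, with a median of 0.22. Removal of each library's trend with length was 1 of the 21 alternatives under which Gm23935 was called (log2 change 1.31). That trend was a smooth curve over all 12187 tested features, of which 39 were under 100 bases. It therefore cannot separate features this short from longer ones.

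Gm26917, the model that overlaps ribosomal repeat sequence, was at 36.5, 49.5 and 37.6 FPKM in Model and at 22.7, 15.7 and 21.2 FPKM in WT. All Model libraries lay above all WT libraries, which was so for 17.3% of the tested features. The means were 41.2 ± 7.19 FPKM in Model and 19.9 ± 3.69 FPKM in WT (SD, n = 3 each), and the log2 change was 1.02 ± 0.17 (SE; limma adjusted p = 0.0141). The call held under all 21 alternatives, with log2 changes of 0.86 to 1.12 and adjusted p-values of 0.00872 to 0.0440. How much ribosomal RNA was left in each library after depletion was not tested. Its part in the values of Gm26917 and of Gm23935 was not tested either.

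Malat1 ran the other way. It was at 45.6, 63.6 and 44.2 FPKM in Model and at 70.8, 123 and 126 FPKM in WT. The groups did not overlap, although Model 2 and WT 1 came close, and 10.9% of the tested features were lower in Model without overlap. The means were 51.1 ± 10.8 FPKM in Model and 106 ± 31.0 FPKM in WT (SD, n = 3 each). The log2 difference of −1.02 ± 0.30 (SE), with a 95% interval of −1.69 to −0.34, did not pass (limma adjusted p = 0.0661). Only 44 features had a lower log2 difference, whereas by its p-value Malat1 ranked 1351st of 12187. It passed under 2 of 21 alternatives, with an adjusted p of 0.0496 when features of at least 5 FPKM were tested and of 0.0477 with limma-voom on the recovered reads under median-ratio scaling. The adjusted p ran up to 0.185 over the 21, and the sign was the same in all of them. Of the 3258 tested features of 6000 bases and over, 53 were called higher and 85 lower in Model, with a median log2 change of −0.11.

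Neat1 and Rn7sk did not pass. Neat1 was at 11.9, 27.1 and 17.2 FPKM in Model and at 18.01, 12.7 and 34.3 FPKM in WT, so the libraries of the groups were interleaved. Its log2 difference was −0.16 with a 95% interval of −0.92 to 0.60 (limma adjusted p = 0.795). Without WT 3 the difference was 0.22 and without Model 1 it was 0.11, while it was −0.46 without WT 2 and −0.45 without Model 2, so its sign rested on single libraries. It was −0.27 after quantile normalization and 0.066 with the length trend removed. Rn7sk was at 3.05, 3.83 and 3.603 FPKM in Model and at 5.99, 2.64 and 1.92 FPKM in WT, and the WT libraries alone spanned a 3.12-fold range. Its log2 difference was 0.09 with a 95% interval of −0.49 to 0.67 (limma adjusted p = 0.850), and it turned negative without WT 2 (−0.01) or WT 3 (−0.17).

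**Figure D2:**
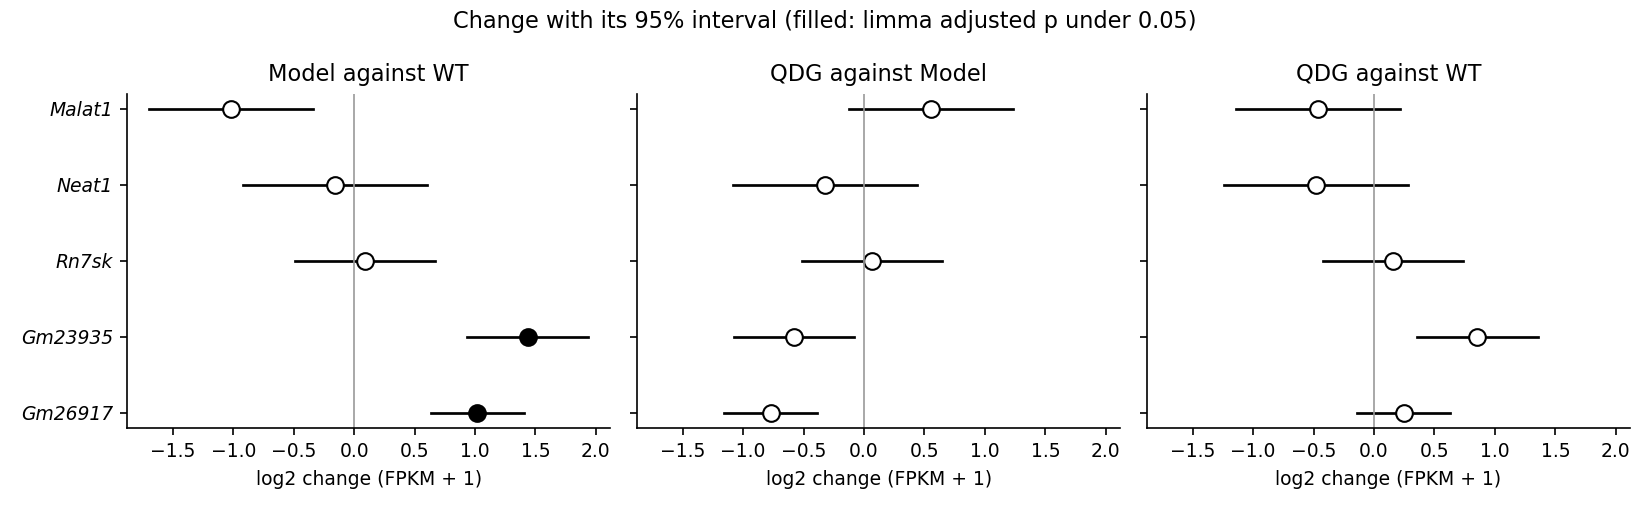
Log2 change of each RNA on the log2(FPKM + 1) scale with its 95% interval, for Model against WT, QDG against Model and QDG against WT. Filled points passed the threshold, which were Gm23935 (1.43) and Gm26917 (1.02) in Model against WT.

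**Figure D3:**
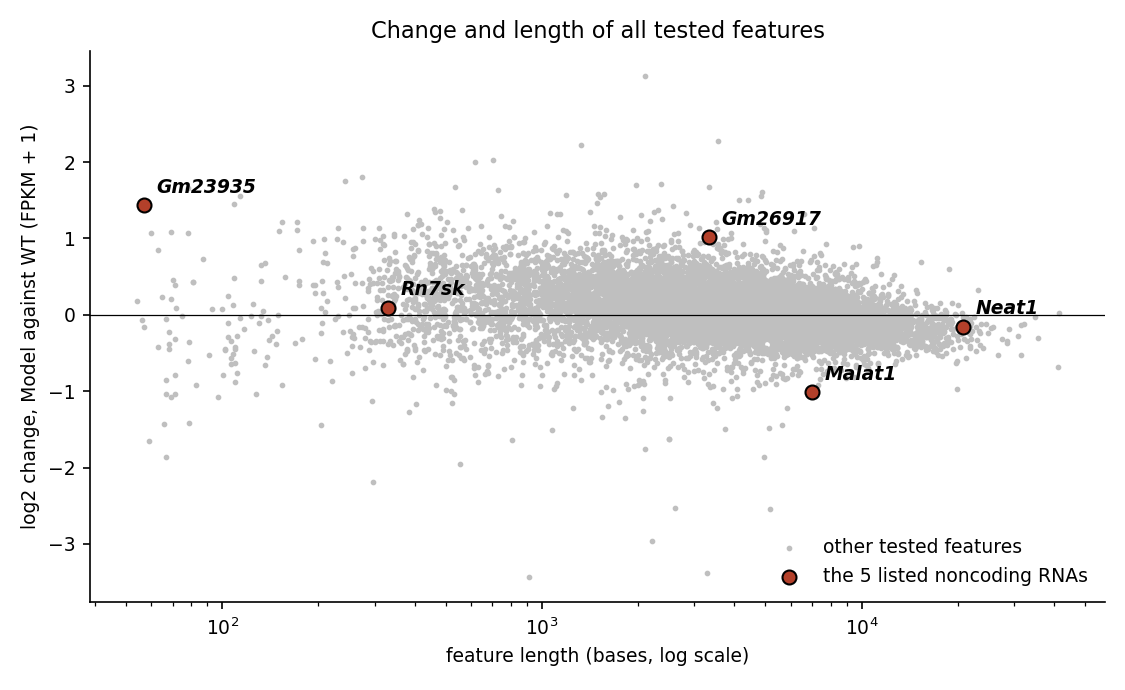
Log2 change of Model against WT for every tested feature against its length in bases on a log scale, with the 5 listed RNAs marked. Gm23935 (57 bases) and Gm26917 (3329 bases) lie near the upper edge of the features of their length and Malat1 (6983 bases) near the lower edge.

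QDG was compared with Model to find which of these RNAs differ with the granule. None of the 5 RNAs passed, and 0% of all tested features did (limma, adjusted p under 0.05; limma-voom on recovered reads also called 0). At an unadjusted p under 0.05 there were 1695 features (13.9%), among them Gm23935 and Gm26917. The values of both lay lower in QDG than in Model without overlap, which was so for 16.3% of the features.

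Gm26917 was at 21.3, 21.6 and 28.0 FPKM in QDG and at 36.5, 49.5 and 37.6 FPKM in Model. The means were 23.7 ± 3.80 FPKM in QDG and 41.2 ± 7.19 FPKM in Model (SD, n = 3 each). The log2 difference was −0.77 ± 0.17 (SE), with a 95% interval of −1.16 to −0.39 before adjustment for the number of features (limma adjusted p = 0.279). By its p-value it ranked 46th of 12187. Its sign was the same under all 21 alternatives, with adjusted p-values of 0.171 to 0.697.

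Gm23935 was at 3946, 4992 and 4813 FPKM in QDG and at 6470.3, 6329 and 7721 FPKM in Model. The difference on the log2 scale was −0.58 ± 0.22 (SE; limma adjusted p = 0.316), and −0.30 with the length trend removed (limma adjusted p = 0.580). The 38 other tested features under 100 bases had a median log2 difference of −0.017. For the 1148 features from 100 to under 1000 bases the median was −0.22. Malat1 was at 51.3, 69.3 and 116 FPKM in QDG and at 45.6, 63.6 and 44.2 FPKM in Model. Only QDG 3 stood clear of the Model libraries by a wide margin, and the log2 difference of 0.55 with a 95% interval of −0.12 to 1.23 did not pass (limma adjusted p = 0.436). Without QDG 3 the difference was 0.24.

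Neat1 was even among the QDG libraries, at 14.0, 11.9 and 16.5 FPKM in QDG, against 11.9, 27.1 and 17.2 FPKM in Model, with a log2 difference of −0.32 (95% interval −1.08 to 0.44, limma adjusted p = 0.691). The difference was −0.59 without Model 1, −0.032 without Model 2 and −0.49 with the length trend removed. Rn7sk was at 4.31, 3.30 and 3.52 FPKM in QDG and at 3.05, 3.83 and 3.603 FPKM in Model. Its log2 difference was 0.07 with a 95% interval of −0.51 to 0.65 (limma adjusted p = 0.926), and it was −0.01 without Model 1 and −0.02 without QDG 1.

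QDG was compared with WT to find which of these RNAs still differ from normal kidney in treated animals. None of the 5 RNAs passed (limma, adjusted p under 0.05), against 2.47% of all tested features (1.63% higher and 0.837% lower), although 1 of the 5, Gm23935, had an unadjusted p under 0.05, as did 21.3% of features. Model against WT and QDG against WT share the WT libraries, and Model against WT and QDG against Model share the Model libraries, so the 3 comparisons are not independent.

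Gm23935 averaged 4583 ± 560 FPKM in QDG and 2578 ± 644 FPKM in WT (SD, n = 3 each). Every QDG library, at 3946 FPKM or more, lay above every WT library, at 3060.4 FPKM or less, which was so for 15.2% of features. The log2 difference of 0.86 ± 0.22 (SE) did not pass (limma adjusted p = 0.0703). It passed under 5 of 21 alternatives, whose adjusted p-values ran from 0.0253 to 0.238 over all of them. Those 5 were the limit of 5 FPKM (0.0499), removal of the length trend (0.0253), limma-voom scaled by total reads (0.0451) or by the median ratio (0.0364), and the fit without WT 3 (0.0428).

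Gm26917 averaged 23.7 ± 3.80 FPKM in QDG and 19.9 ± 3.69 FPKM in WT, and the groups overlapped (log2 difference 0.24, 95% interval −0.14 to 0.63, limma adjusted p = 0.439). The Gm26917 difference was 0.092 without WT 2 and 0.12 without QDG 3. Malat1 averaged 78.9 ± 33.5 FPKM in QDG and 106 ± 31.0 FPKM in WT (log2 difference −0.46, 95% interval −1.14 to 0.21, limma adjusted p = 0.404). The Malat1 difference was −0.73 without WT 1, −0.20 without QDG 1 and −0.78 without QDG 3. For Neat1 the means were 14.1 ± 2.27 FPKM in QDG and 21.7 ± 11.3 FPKM in WT (log2 difference −0.48, 95% interval −1.24 to 0.28, limma adjusted p = 0.443). The Neat1 difference was −0.79 without WT 2 and −0.10 without WT 3. Rn7sk stood at 3.71 ± 0.530 FPKM in QDG and 3.52 ± 2.17 FPKM in WT (log2 difference 0.16, 95% interval −0.42 to 0.74, limma adjusted p = 0.766), and without WT 3 its difference was −0.11.

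Ratios of 2 RNAs within a library do not depend on the library total. Malat1 and Neat1, though neighbours in the genome, did not keep a fixed ratio. In QDG the level of Malat1 was 3.67, 5.81 and 7.06 times that of Neat1 per length, in Model 3.83, 2.35 and 2.57 times, and in WT 3.93, 9.69 and 3.67 times. The log2 ratio averaged 2.41 ± 0.48 in QDG, 1.51 ± 0.38 in Model and 2.37 ± 0.78 in WT (SD, n = 3 each). The groups overlapped in each comparison. The exact two-sided permutation test gave p = 0.2 both for Model against WT and for QDG against Model, and 0.9 between QDG and WT (0.3, 0.3 and 0.9 after adjustment over these 3), where 3 against 3 libraries cannot go below 0.1.

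The ratio of Malat1 to Gm26917 was chosen after its values were seen and is given without a test. Malat1 was lower and Gm26917 higher in every Model library than in every WT library. A ratio without overlap between Model and WT follows from that. Malat1 stood at 2.41, 3.20 and 4.14 times Gm26917 in QDG, at 1.25, 1.29 and 1.18 times in Model, and at 3.12, 7.82 and 5.92 times in WT. The 3 Model libraries lay within a narrow band below all others, and QDG 2 and QDG 3 overlapped with the lowest WT library. For Gm23935 over Gm26917, chosen in the same way, the log2 ratio averaged 7.60 ± 0.22 in QDG, 7.38 ± 0.35 in Model and 7.003 ± 0.15 in WT. Every QDG library lay above every WT library there, while Model overlapped with both.

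**Figure D4:**
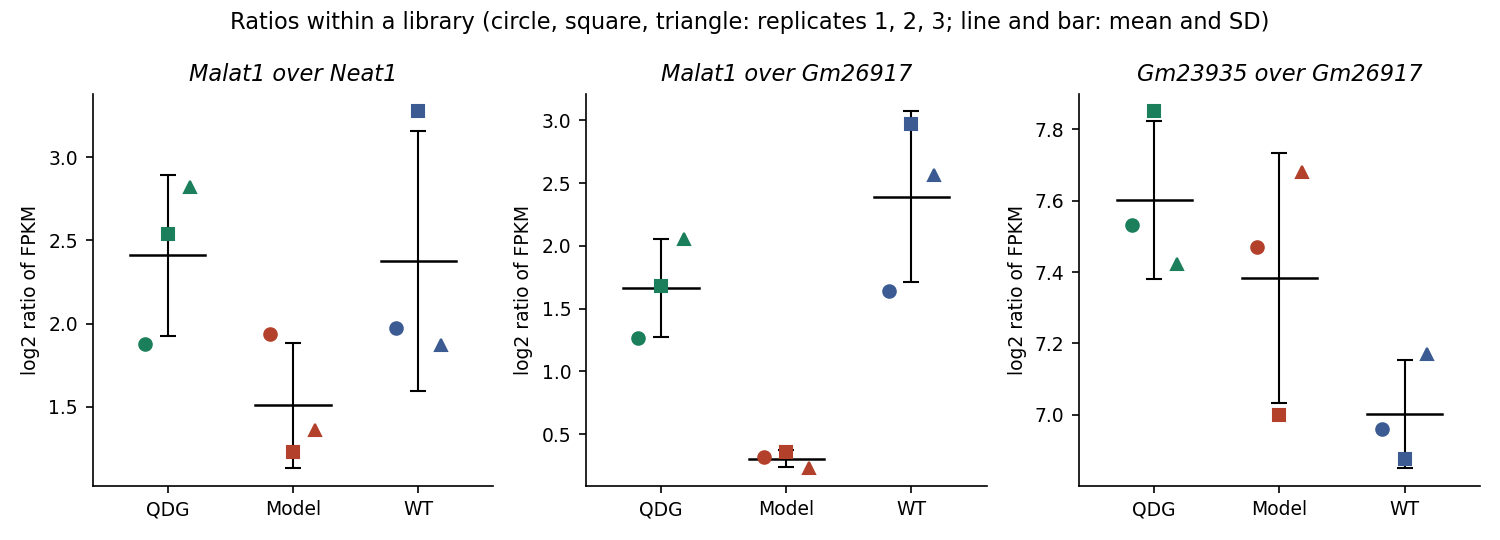
Log2 ratio of the FPKM of 2 RNAs within each library, in QDG, Model and WT, with mean and SD (n = 3 each). Malat1 over Neat1, which was planned, overlapped between all groups. The ratios over Gm26917 were chosen after their values were seen and were not tested. Malat1 over Gm26917 averaged 0.31 in Model, below 1.67 in QDG and 2.39 in WT.

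The spread within groups is given as the SD relative to the mean, without a test. Gm23935 varied by an SD of 12.2% of the mean in QDG, 11.2% in Model and 24.99% in WT, and Gm26917 by 16.1%, 17.5% and 18.6% in that order of groups. Malat1 varied by 42.5% in QDG, 21.2% in Model and 29.1% in WT. Neat1 varied by 16.1% in QDG, 41.1% in Model and 52.0% in WT, where WT 3 stood at 2.70 times the lowest WT library. Rn7sk varied by 14.3% in QDG and 11.5% in Model, within the range of its counting error of 13.9% to 22.4% or below it, and by 61.7% in WT. Counting error was at most 2.70% for the other RNAs. The feature most like Malat1 over the 9 libraries was ENSMUSG00000054051, with a Pearson r of 0.98 on the log2(FPKM + 1) scale. It was listed at 0.832 to 1.33 FPKM, and the measure was used only to describe likeness.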

How the data were processed

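RNA from 9 kidney samples was measured by sequencing after ribosomal RNA depletion, per the labels' protocols. The authors deposited 1 value per feature and library without naming its unit. It was taken as FPKM, since for 100% of the 17862 features a whole-base length turned the deposited FPKM values into whole reads within 0.001 read (or 2e-08 of the count). The implied library totals were 26.2 M to 31.4 M, were not whole numbers in 8 of 9 libraries, and were below the recovered reads in 4, so they are not plain read totals. The submitters' processing notes name limma. The sources used here do not give how these totals were made, or the aligner, counter, build and annotation. No value was 0.

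Features averaging at least 1 FPKM were fitted with limma 3.58.1 (R 4.3.3, intensity trend) on log2(FPKM + 1) with all 9 libraries, which share 1 estimate of spread. P-values were two-sided and Benjamini-Hochberg adjusted over all features within a comparison. Log2 changes understate changes of low values. The code was tested on simulated data. All listed RNAs are named, whatever their change. The feature most like Malat1 was added as the highest Pearson r. The planned likeness to Gm42418 and planned ratios with Rmrp, Rpph1 or Gm42418 could not be computed. The 47357 reference genes carried 0 Ensembl identifiers, so gene lists written in symbols could not be matched to the features and were not used. The reference sequence tables (RefSeq, GRCr8) matched 0 of the 5 RNAs. The RNAs, lists and alternatives were chosen with earlier results of these data known.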

Additional observations from a re-analysis of the deposited data

How the results depend on the processing

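Gm23935 and Gm26917 were called in Model against WT under every alternative, and no RNA was called in QDG against Model under any. In QDG against WT, 0 of the 5 were called, but 1 was with a limit of 5 FPKM, with the length trend removed and with limma-voom under both scalings, and 0 to 1 with 1 library left out. Signs turned only for Neat1, for Rn7sk and for the Malat1 to Neat1 ratio. With the length trend removed, the log2 difference of Model against WT was 0.066 for Neat1 and −0.15 for Rn7sk. Without 1 library it ran from −0.46 to 0.22 for Neat1 and from −0.17 to 0.46 for Rn7sk. For Rn7sk it ran from −0.022 to 0.129 in QDG against Model and from −0.11 to 0.52 in QDG against WT. The log2 ratio of Malat1 over Neat1 in QDG against WT was 0.04, and −0.21 to 0.49 without 1 library. Rn7sk falls below the limit of 5 FPKM and has no value there.

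Over all features, the 963 calls of Model against WT became 130 when the QDG libraries were not fitted, 533 under the replicate block, 121 with a 2-fold limit as well, and between 195 (Model 3 left out) and 1525 (WT 3 left out). For QDG against Model the 0 calls became 1 when WT was not fitted and at most 3 (Model 1 left out; at least 0). For QDG against WT the 301 calls became 515 with quantile normalization, 530 with the length trend removed, 478 when Model was not fitted, 154 under the replicate block, 76 with a 2-fold limit as well, and between 37 (QDG 2 left out) and 774 (WT 3 left out). The cause was not tested. The share higher among the called in Model against WT is given as counts: 732 higher and 231 lower, 431 and 283 after quantile normalization, and 474 and 203 when scaled by listed reads, a scaling added after seeing the data. The replicate number was not taken as a pairing, because the labels say nothing of pairing. Same-numbered libraries did not deviate together (correlations of −0.33 to 0.14, 1 of 9 libraries closest to its own number). With 3 libraries per group, these correlations cannot settle pairing. The replicate block changed no call of the 5 RNAs. The replicate block left the Malat1 over Neat1 differences at −0.87 in Model against WT, 0.90 in QDG against Model and 0.04 in QDG against WT.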
